A study of Mus musculus with 16 samples.

Results

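AP-1 is a family of dimeric transcription factors built from Fos and Jun proteins and their relatives, and the genes for its subunits were followed here in fetal and newborn lungs of mice that lack T1α. The family was taken as 9 genes, Fos, Fosb, Fosl1, Fosl2, Jun, Junb, Jund, Atf3 and Maff, of the 8251 genes that the array measures with a probe set assigned to a single symbol. All 9 were found, on 13 of the 12422 probe sets that are not controls. They were selected on their signals at term with and without T1α, so the values at term chose the genes and are given below as a description with no p-value.

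T1α, the product of Pdpn, is a membrane protein of the alveolar type I cell, and pups without it cannot expand their alveolar sacs and die of respiratory failure at birth. Total RNA of whole lungs was hybridized to Affymetrix Murine Genome U74Av2 arrays, 1 array for each lung. There were 16 arrays, here called by the letters of their labels. On embryonic day 18.5 (E18.5) wild-type T1α(+/+) lungs gave arrays I to M (n = 5) and null T1α(-/-) lungs arrays A to E (n = 5). At term the (+/+) lungs gave arrays N to P (n = 3) and the (-/-) lungs arrays F to H (n = 3). The (-/-) animals carried the targeted allele in every cell, and all genotypes came from matings of T1α(+/-) mice. Term pups were obtained within minutes of a normal delivery, and no lung received any treatment. Litters, strain and sex were not given in the labels.

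AP-1 proteins carry a basic region and a leucine zipper (bZIP). Fos proteins bind DNA only when paired with a Jun protein, whereas Jun proteins can also pair with each other. Fos, Fosb, Jun, Junb and Atf3 belong to the immediate early genes, which are transcribed without new protein synthesis after a stimulus and whose mRNAs decay quickly, and in lung they are known to respond to growth factors, stretch and oxidants. Jund, in contrast, is known as the Jun gene that resting cells also express.

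The sequence just upstream of the transcription start is a feature of these genes that played no part in their selection. RefSeq promoters of the mouse build GRCm38.p6 were at hand for 8 of the 9 genes (not for Fosl1), and the 250 bases before each start were searched on both strands for TGACG, the core of the cyclic AMP response element that CREB and ATF proteins bind. It was present in at least 1 promoter of 5 genes (Fos, Fosb, Junb, Atf3 and Maff) and not in those of Jun, Jund and Fosl2, against 17.8% of all 32851 promoters of the same length. That share is by promoter and not by gene, and Maff had 3 promoters in which to hold the core. It was also not matched for GC content. The palindrome TGACGTCA, which contains that core, was found in 1 of the 3 Maff promoters and in 1.55% of all promoters. The AP-1 site TGANTCA (6.75% of all promoters) and the CArG box bound by serum response factor (1.47%) were in none of the 10 promoters of the family, which says only that these letters are not in these windows. The promoters of Fos, Fosb, Junb and Atf3 are printed because each holds the core and was called higher at term than at E18.5 in (+/+) lungs. Each is written 5′ to 3′ on the strand of its gene, with TGACG or its reverse complement in capitals.
Fos: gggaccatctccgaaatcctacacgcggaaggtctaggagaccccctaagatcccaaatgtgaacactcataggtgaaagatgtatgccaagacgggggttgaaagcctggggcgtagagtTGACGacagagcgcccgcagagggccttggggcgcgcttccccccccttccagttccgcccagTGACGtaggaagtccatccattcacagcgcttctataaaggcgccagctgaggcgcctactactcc
Fosb: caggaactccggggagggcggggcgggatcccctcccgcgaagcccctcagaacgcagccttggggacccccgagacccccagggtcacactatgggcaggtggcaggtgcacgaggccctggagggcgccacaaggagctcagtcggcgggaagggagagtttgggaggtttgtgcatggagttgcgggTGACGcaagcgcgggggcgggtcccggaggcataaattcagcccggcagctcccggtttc
Junb: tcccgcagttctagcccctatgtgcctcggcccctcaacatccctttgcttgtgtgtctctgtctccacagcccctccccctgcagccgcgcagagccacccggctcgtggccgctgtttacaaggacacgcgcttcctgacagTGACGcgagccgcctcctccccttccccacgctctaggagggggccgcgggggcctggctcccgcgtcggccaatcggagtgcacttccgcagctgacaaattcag
Atf3: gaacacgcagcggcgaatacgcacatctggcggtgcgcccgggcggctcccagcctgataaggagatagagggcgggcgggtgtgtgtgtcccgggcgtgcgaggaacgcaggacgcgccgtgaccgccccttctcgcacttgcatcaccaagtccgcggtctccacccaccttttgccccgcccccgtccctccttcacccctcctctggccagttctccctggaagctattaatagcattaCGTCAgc

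The Fos sequence lies at chr12:85473640-85473889 on the plus strand and holds the core at 2 places, which end 124 and 61 bases before the start. The other sequences are on the minus strand, and each holds 1 core. The Fosb core, at chr7:19310046-19310295, ends 55 bases before the start, and the Junb core, at chr8:84978749-84978998, ends 101 bases before it. The Atf3 core, at chr1:191183334-191183583, ends 2 bases before it. Only the Fos promoter of the family also held TATAA, a sequence found in 22.8% of all promoters.

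Signals are Microarray Suite 5.0 values in arbitrary units, scaled by the authors so that arrays can be compared. They compare a probe set across arrays and do not rank genes by abundance. Differences are differences of log2(signal + 16), on which low signals change less than on the raw scale, and each standard error (SE) comes from limma, a linear model fitted over all probe sets tested. A probe set was tested where the median of a group exceeded the signal that 45% of values exceed, a level between 48.7 and 54.3 in the 4 comparisons. In all, 8 family genes passed in every comparison, and Fosl1 passed in none. Because whole lungs were used, fewer cells of a type and less RNA per cell cannot be told apart.

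Pdpn marked the genotypes as labelled, with 1.4 to 21.2 on the E18.5 (-/-) arrays against 60.2 to 135.5 on the (+/+) arrays, and 8.6 to 30 against 39.7 to 214.9 at term. Of 10 lung epithelial markers listed, 5 had a probe set and 4 passed the filter. Among these, the surfactant protein gene Sftpc read 5027.3 or higher on every array and the club cell gene Scgb1a1 read 868.5 or higher. The highest signal of an array lay between 12978.7 and 29523.9 at E18.5 and between 6159.4 and 10575.8 at term. At term it was that of the globin gene Hba-a1 on every array. At E18.5 it was Hba-a1 on B, C, D, E and K and Sftpc on M. It is thus the signal of a single probe set, and whether time or the handling of the arrays sets it cannot be told apart. The ratio of 3′ to 5′ GAPDH signal, a measure of RNA integrity, was 0.961 to 1.72 at E18.5, whereas at term it was 1.11 on F, 2.63 on G, 0.827 on H, 1.84 on N, 2.55 on O and 0.853 on P. The same ratio for β-actin was 1.08 to 1.91 at E18.5. At term it was 1.55 on F, 1.97 on G, 1.46 on H, 2.72 on N, 1.35 on O and 1.30 on P, a different order. Array G also had the female marker Xist at 75.8 and the Y-linked Eif2s3y at 6.5, while the other 5 term arrays had Xist at 6.7 to 10.6 and Eif2s3y at 43.9 to 58.9.

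Fos, the founding member of the family, had low signals in every fetal lung and its highest signals in newborn wild-type lungs. At E18.5 the (+/+) arrays read 72.1, 34.2, 85.3, 37.6 and 63.6 in the order I to M, and the (-/-) arrays read 27.5, 58.1, 45.5, 81.3 and 71.4 in the order A to E. These groups overlapped completely. At term the (+/+) arrays N, O and P read 2283.4, 2487.1 and 2239, and the (-/-) arrays F, G and H read 328.2, 1636.7 and 712.1. Every newborn lung thus lay above every fetal lung, and every term (-/-) lung lay below every term (+/+) lung. The latter order held for 1.9% of all probe sets tested. How many probe sets separated the times completely was not counted, so such separations here and below describe the family genes only.

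The group means of Fos were 58.6 ± 22.1 (SD, n = 5) in E18.5 (+/+), 56.8 ± 21.2 (SD, n = 5) in E18.5 (-/-), 2337 ± 132 (SD, n = 3) in term (+/+) and 892 ± 673 (SD, n = 3) in term (-/-) lungs. The wild-type mean at term was 39.9-fold that at E18.5, a log2 difference of 5.03 (SE 0.28), and the null mean was 15.7-fold its own fetal mean, a log2 difference of 3.41 (SE 0.41). The 3 null lungs were spread far more widely than the 3 wild-type lungs, with F at 14.05%, H at 30.5% and G at 70.0% of the term (+/+) mean. The log2 difference between genotypes at term was -1.66 (SE 0.47), and the (+/+) mean was 2.62-fold the (-/-) mean. A second Fos probe set, 161716_at, stayed between 1.4 and 22.9 on all arrays and was never tested.

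Fosb, a partner of Jun proteins like Fos, showed a smaller difference at birth. In the fetal lungs its signals ranged from 62.5 to 128.1 in (+/+) and from 38.4 to 165.4 in (-/-), with means of 88.1 ± 26.3 and 93.3 ± 52.6 (SD, n = 5 each). At term the (+/+) arrays read 181.9 on N, 202.9 on O and 157.8 on P, and the (-/-) arrays read 92.3 on F, 139.5 on G and 101.6 on H. The genotypes did not overlap at term, but the (-/-) newborn lungs lay within the range of the (-/-) fetal lungs. The term means were 181 ± 22.6 and 111 ± 25 (SD, n = 3 each), a log2 difference of -0.64 (SE 0.23). From E18.5 to term the log2 difference was 0.95 (SE 0.26) in (+/+) and 0.34 (SE 0.34) in (-/-) lungs.

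Fosl1 and Fosl2, whose products FRA-1 and FRA-2 lack the activation domain of Fos, did not follow Fos. Fosl1 was below the filter in every comparison, with 4.3 to 74 in fetal lungs, 2.8, 2.7 and 5.5 on term (+/+) arrays and 13.5, 17.8 and 6.3 on term (-/-) arrays. It was the 1 family gene that was higher on every (-/-) array than on every (+/+) array at term, at signals under the filter. How often this order occurs over all probe sets was not counted. Fosl2 read 41.3 to 123.2 in E18.5 (+/+) and 40.5 to 90.9 in E18.5 (-/-) lungs, 41.2 to 64.4 in term (+/+) and 25.9 to 61.8 in term (-/-) lungs. Its log2 difference was -0.21 (SE 0.27) between genotypes at term, and the values overlapped in every comparison. At term Fosl2 passed the filter of 48.7 only through the (+/+) lungs, with a median of 51.7 against 46.3 in (-/-) lungs.

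**Figure D1:**
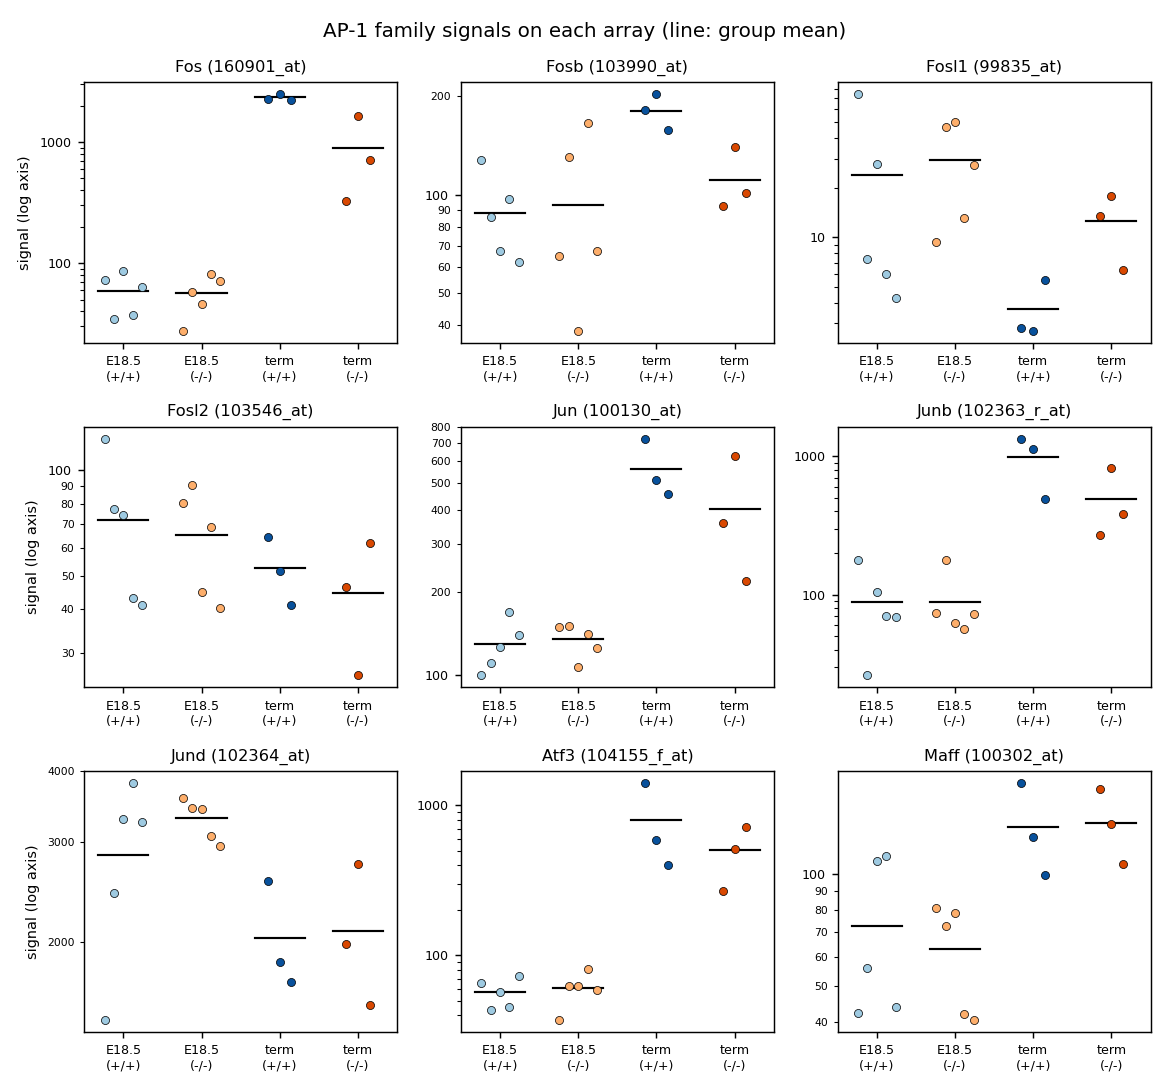
Signal of 1 probe set for each of the 9 AP-1 family genes in the 4 groups (points, arrays; horizontal line, group mean; log axis that differs between panels). Fos, Jun, Junb and Atf3 stand higher on all term arrays than on all E18.5 arrays, and the Fos panel shows the term (-/-) arrays at 328.2 to 1636.7 below the term (+/+) arrays at 2239 to 2487.1.

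Among the Jun genes, Junb, which encodes a Jun protein known to restrain c-Jun in many promoters, had the largest difference between the genotypes at term after Fos. On probe set 102363_r_at the E18.5 (+/+) arrays I to M read 176.9, 26, 104.6, 69.7 and 68.5, and the (-/-) arrays A to E read 73.2, 178.5, 62.3, 56.7 and 72.7. At term it read 1345.6 on N, 1138.6 on O and 491 on P, and 268.5 on F, 825.9 on G and 380.7 on H. The newborn lungs were all above the fetal lungs, but at term G lay above P, so the genotypes overlapped. The term means were 992 ± 446 and 492 ± 295 (SD, n = 3 each), a log2 difference of -1.02 (SE 0.46), against log2 differences over time of 3.31 (SE 0.42) in (+/+) and 2.23 (SE 0.37) in (-/-) lungs. The other Junb probe set, 102362_i_at, gave -0.96 between genotypes at term and 3.23 and 2.14 over time. These 2 probe sets read the same transcript and are not independent.

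Jun, the gene of c-Jun, read 99.6 to 170 in E18.5 (+/+) and 106.8 to 150.5 in E18.5 (-/-) lungs. At term it read 724.8 on N, 512 on O and 456.2 on P, and 358.6 on F, 626.9 on G and 220.3 on H. All newborn lungs lay above all fetal lungs, and at term G lay within the (+/+) range while F and H lay below it. The log2 difference between genotypes at term was -0.57 (SE 0.37), and over time it was 1.99 (SE 0.26) in (+/+) and 1.36 (SE 0.28) in (-/-) lungs.

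Jund did not follow the other Jun genes. Its signals were 1453.6 to 3811.8 in E18.5 (+/+) and 2953.2 to 3594.3 in E18.5 (-/-) lungs, against 1693.4 to 2562.7 in term (+/+) and 1543.2 to 2742.5 in term (-/-) lungs. All term (-/-) arrays were below all E18.5 (-/-) arrays, a log2 difference of -0.69 (SE 0.22), whereas the (+/+) arrays overlapped between times, with a log2 difference of -0.43 (SE 0.34). The genotypes at term differed by 0.02 (SE 0.28).

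Atf3, a bZIP factor induced by stress that pairs with Jun proteins, read higher in every newborn lung than in every fetal lung on its main probe set. On that probe set, 104155_f_at, the fetal lungs read 42.9 to 72.3 in (+/+) and 37.1 to 80.9 in (-/-). At term it read 1406 on N, 584.8 on O and 398.5 on P, and 267.8 on F, 515.6 on G and 722.9 on H. Among the newborn lungs G and H lay within the (+/+) range and F lay below it. The log2 difference was -0.56 (SE 0.48) between genotypes at term, 3.30 (SE 0.34) over time in (+/+) and 2.68 (SE 0.29) over time in (-/-) lungs. The suffix _f marks a probe set whose probes may match related transcripts, and a second probe set, 104156_r_at, gave -0.66, 1.80 and 1.40 for the same differences, with an overlap over time in (-/-) lungs, where fetal array A read 81.6 and newborn array F read 55. Another, 161645_r_at, stayed at or below 13.1 and was not tested.

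Maff, a small Maf protein without an activation domain, differed between the times to a smaller extent and hardly between the genotypes. Its term signals were 175.3, 125.8 and 99.3 on N to P and 169.6, 136.5 and 106.3 on F to H, a log2 difference of 0.05 (SE 0.26). Its fetal signals were 42.4 to 111.8 in (+/+) and 40.6 to 81.3 in (-/-) lungs. Over time the log2 difference was 0.81 (SE 0.32) in (+/+) lungs, where the groups overlapped, and 0.98 (SE 0.25) in (-/-) lungs, where they did not.

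The comparison of the genotypes at E18.5 asked whether the loss of T1α changed the family before birth, and it used none of the term arrays on which the genes were selected, although the E18.5 results were also known when they were chosen. No family gene was called. The log2 differences of the 8 genes tested lay between -0.12 (Maff, SE 0.28) and 0.28 (Jund, SE 0.26), and all groups overlapped. The lowest adjusted p of a family gene in limma was 0.894, for Jund (n = 5 each), and no family probe set had an unadjusted p under 0.05. In the exact 2-sided permutation test on the mean log2 values, whose smallest possible p is 0.00794 here, p ranged from 0.365 (Jund) to 0.952 (Fosb). Over all 5825 probe sets tested, 2 were called at an adjusted p under 0.05, 0.0343%, and 1.13% had groups that did not overlap. The median log2 difference of the 9 genes was 0.06, and that of all probe sets tested was 0.04. With SEs of 0.19 to 0.36 on the log2 scale, a difference of that size was not detectable.

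At term most of the family was lower in (-/-) lungs, as the choice of the genes had it. Of the 9 genes, 6 had a lower mean log2 signal in (-/-) than in (+/+) lungs and 3 (Fosl1, Jund and Maff) a higher one, with a median log2 difference of -0.56 against 0.01 over the 5831 probe sets tested. Fos and Fosb had all 3 (-/-) arrays below the lowest (+/+) array, which held for 1.9% of all probe sets tested. Under limma with an adjusted p under 0.05, 0% of the probe sets (0 of 5831) were called at term, with 40 at an unadjusted p under 0.05. With 3 lungs against 3 an exact test cannot go below 0.1. Without N the median of the 9 genes was -0.082, and the log2 difference of Atf3 was -0.05 and that of Fos -1.67. The signs for Fosl2, Jund and Maff turned when single term arrays were left out, and that of Jund turned also with array quality weights.

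**Figure D2:**
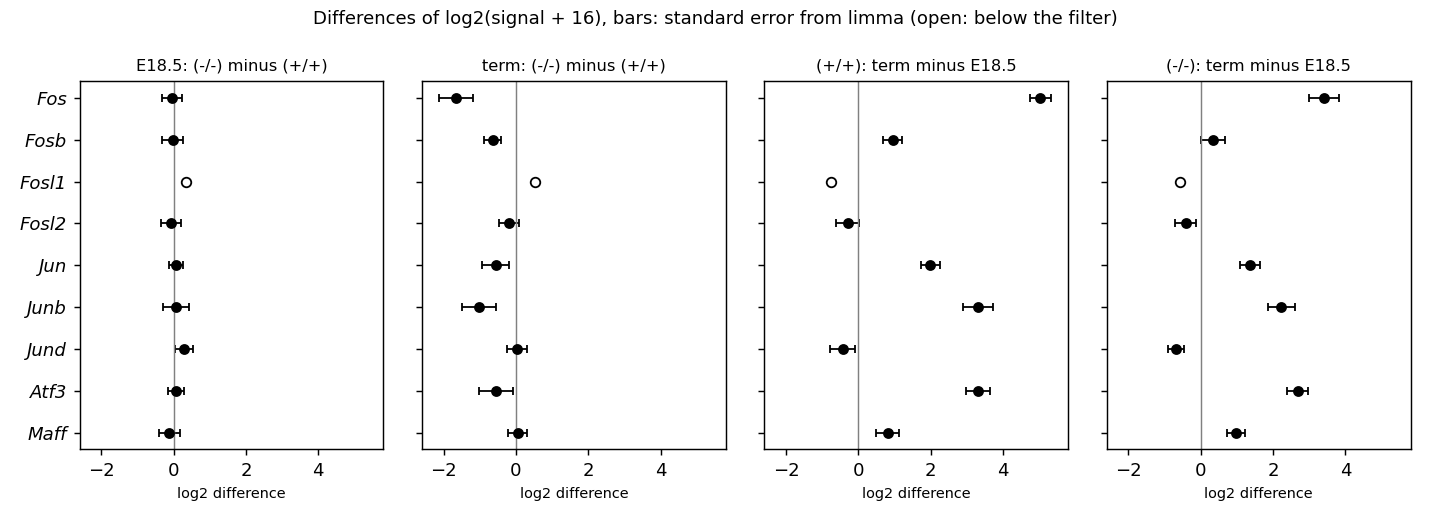
Difference of log2(signal + 16) for each AP-1 family gene in the 4 comparisons (points, difference of group means; bars, SE from limma; open points, Fosl1, below the filter). At E18.5 the points lie near 0, at term Fos is at -1.66 and Junb at -1.02, and over time Fos reaches 5.03 in (+/+) and 3.41 in (-/-) lungs.

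The (-/-) newborn lungs differed among themselves, and this spread was shared by several family genes. F was below all 3 (+/+) arrays for 5 of the 9 genes (Fos, Fosb, Jun, Junb and Atf3). H lay below all of them for 5 (Fos, Fosb, Jun, Junb and Jund) and G for 3 (Fos, Fosb and Fosl2). How often a single array does so over all probe sets was not counted, so these counts describe the 9 genes only. G was the closest to wild type for Fos, Fosb, Jun and Junb, but not for Atf3, for which H was the closest. Array G is also the (-/-) term array with the high GAPDH ratio, and the only term array with the female marker. Among the arrays with a GAPDH ratio of 1.84 to 2.63, Fos was 1636.7 on G against 2283.4 and 2487.1 on N and O, and among those with 0.827 to 1.11 it was 328.2 and 712.1 on F and H against 2239 on P. For Jun, G at 626.9 lay between O and N, while F and H lay below P, and for Atf3, H at 722.9 lay above P. The β-actin ratio does not give these subsets, as it was 2.72 on N and 1.35 on O. The subsets by GAPDH hold as few as 1 array of a genotype, and no test was made on them.

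Without G, the log2 difference at term over lungs of like sex markers was -2.23 for Fos, -0.80 for Fosb, -0.94 for Jun and -1.46 for Junb, each farther from 0 than with G. These are the genes for which G was the closest to wild type, so leaving it out could move their differences only this way. The part of sex in the values was not tested. The summed signal of 8 heart muscle markers was 12116 on F and 6301 on O, against 884 to 1512 on the other 4 term arrays, and it was 1037 to 23203 at E18.5. The summed signal of 7 liver markers was 74.4 to 148 at term, and that of the 10 blood and neutrophil markers was 7123 to 11650, most of it from Hba-a1 (6159.4 to 10575.8), with no marker of these lists at 0 on any array. Of the blood and neutrophil markers 7 of 11 were tested, with a median log2 difference of -0.36 between the genotypes at term and 0 calls. The neutrophil genes among them were lower in (-/-) lungs by their means. S100a9 read 271, 288.3 and 193.7 on N to P against 100.3, 153.8 and 144.1 on F to H, a log2 difference of -0.84 (SE 0.26) with no overlap, and the differences were -0.90 (SE 0.39) for Ltf, -0.69 (SE 0.32) for S100a8 and -0.36 (SE 0.24) for Camp. Ltf passed the filter of 48.7 only through the (+/+) lungs, with a median of 58.3 against 39.9 in (-/-) lungs. The red cell genes Hba-a1, Alas2 and Hbb-y differed by 0.16 (SE 0.23), 0.33 (SE 0.48) and 0.53 (SE 0.25). The part of these cells and tissues and of the RNA quality in the values of the family was not tested.

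**Figure D3:**
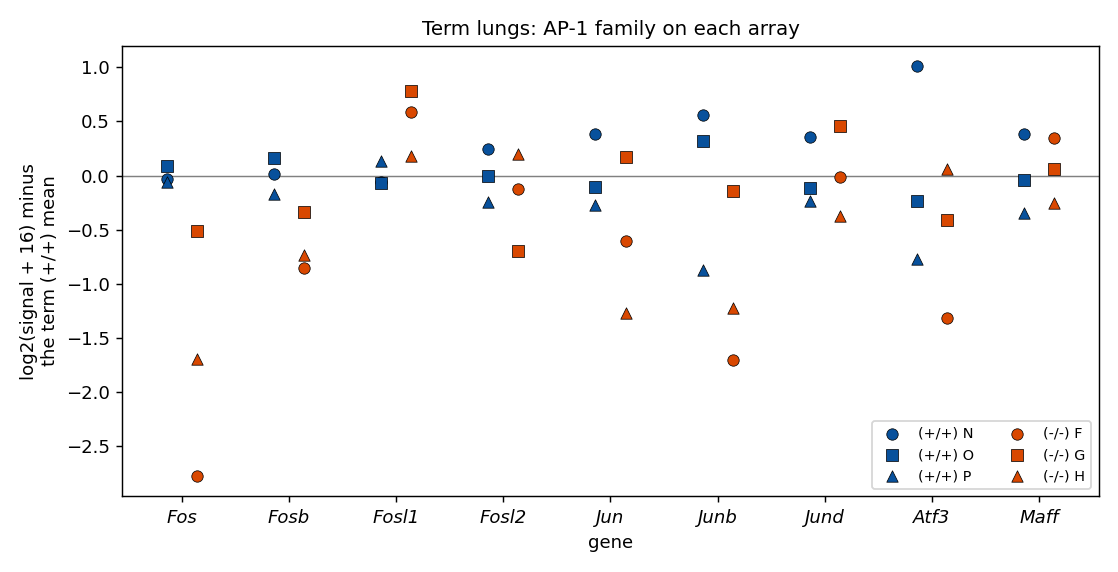
Each term array for the 9 AP-1 family genes, as log2(signal + 16) minus the mean of the 3 term (+/+) arrays (blue, N, O and P; orange, F, G and H). The (-/-) arrays F and H lie lowest for Fos and Junb, G lies closer to the (+/+) arrays for these genes, and Atf3 spreads as widely in (+/+) as in (-/-) lungs.

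The comparison of term with E18.5 within each genotype describes how the family differed between fetal and newborn lungs. The genes were chosen on the term arrays, so their places in the fit over all probe sets are a description and no evidence of a change. That fit, at an adjusted p under 0.05, called 10.7% of the 6097 probe sets higher and 8.07% lower at term in (+/+) lungs, among them 5 of the 9 genes as higher (Fos, Fosb, Jun, Junb and Atf3) and 0 as lower. In (-/-) lungs it called 13.8% of the 6145 probe sets higher and 13.1% lower, among them 5 of the 9 genes as higher (Fos, Jun, Junb, Atf3 and Maff) and 1 as lower (Jund). The median log2 difference of the 9 genes was 0.95 in (+/+) and 0.98 in (-/-) lungs, beside -0.04 and -0.06 over all probe sets tested.

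Of these places, that of Fosb in (+/+) lungs was lost without N and without O, and that of Maff in (-/-) lungs without F. Maff in (+/+) lungs was called without K and with array quality weights. The call of Jund in (-/-) lungs was lost under 8 alternatives, both other scalings among them, although its direction stayed. When the arrays were scaled to a common median, the median of all probe sets tested shifted by 0.18 in (+/+) and 0.14 in (-/-) lungs, and the 650 higher and 492 lower calls in (+/+) lungs became 685 and 186, and the 851 higher and 803 lower calls in (-/-) lungs became 1089 and 478.

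Fosb passed in (+/+) but not in (-/-) lungs, and Jund and Maff the reverse. These calls do not show that the genotypes differed over time. In a test of that difference over 6405 probe sets limma called none (0% at an adjusted p under 0.05, 94 at an unadjusted p under 0.05). The summed signal of the 10 blood and neutrophil markers was 7123 to 11650 at term and 13178 to 31216 at E18.5, and its members were called in both directions, with 2 of 8 tested called higher and 1 lower in (+/+) lungs and 2 of 7 higher and 3 lower in (-/-) lungs. The globin gene Hba-a1 was lower at term, by a log2 difference of -1.52 (SE 0.37) in (+/+) and -1.48 (SE 0.26) in (-/-) lungs, while S100a9 was higher by 1.47 (SE 0.32) and 0.61 (SE 0.21) and S100a8 by 1.11 (SE 0.36) and 0.72 (SE 0.21). Of the lung epithelial markers, Sftpc and the surfactant protein gene Sftpb were lower at term in (+/+) lungs, by -1.45 (SE 0.36) and -1.14 (SE 0.34). Scgb1a1 was higher there by 1.33 (SE 0.40), and the directions were the same in (-/-) lungs. The 3′ to 5′ ratios also reached higher values at term, as given above. The sex markers were not matched between the times. Eif2s3y read 4.7 to 49.6 in E18.5 (+/+) lungs and 43.9 to 54.2 in term (+/+) lungs. In (-/-) lungs it read 2.1 to 33.4 at E18.5 and 6.5 to 58.9 at term. Whether these bear on the differences over time was not tested, and time and the handling of the arrays cannot be told apart.

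Many, but not all, of the other immediate early genes tested were called higher at term. Of a list of 37, 26 were tested in (+/+) lungs, of which 15 were called higher at term and 0 lower, with a median log2 difference of 1.499, where 10.7% of all probe sets were called higher. In (-/-) lungs 17 of 25 were called higher and 0 lower, with a median of 1.04, where 13.8% of all were called higher. The others did not pass, among them Klf10 with -0.01 (SE 0.27) in (+/+) and Dusp2 with -0.39 (SE 0.28) in (-/-) lungs. A gene was tested when either group passed the filter. Egr1, Nr4a1 and Ccn1 had fetal (+/+) medians of 42.4, 44 and 30.9, below the level of 53.4. They thus entered the (+/+) fit only through their term values. Dusp1, a phosphatase that turns off MAP kinases, was higher at term by 3.76 (SE 0.28) in (+/+) and by 2.84 (SE 0.28) in (-/-) lungs on the log2 scale. Nr4a1, an orphan nuclear receptor, was higher by 3.67 (SE 0.29) and 2.99 (SE 0.42), and Ccn1, a secreted matrix protein, by 3.51 (SE 0.25) and 2.47 (SE 0.22). Egr1, a zinc finger factor often induced together with Fos, was higher by 2.07 (SE 0.26) in (+/+) lungs and passed there, while its difference in (-/-) lungs was 0.17 (SE 0.39).

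Between the genotypes at term 21 of the 26 other immediate early genes tested were lower in (-/-) lungs by their means, with a median of -0.37 and 0 calls. The list was drawn up with earlier results of these data known. Egr1, Ccn1, Dusp1 and Nr4a1 were already reported lower at term from these arrays, so these counts are only a description. Egr1 read 242.5, 262.5 and 174.5 on N to P against 30.9, 116.7 and 43.5 on F to H, and it passed the filter only through the (+/+) lungs. Ccn1 read 548.9, 613.9 and 520.8 against 145, 232.2 and 234.7, and Dusp1 read 2427.9, 2085.2 and 1700.3 against 1294.3, 1493.9 and 1047.8. Nr4a1 read 785.9, 1081.6 and 717.1 against 133.6, 355.1 and 605, and Rgs2 read 798, 447.8 and 463.8 against 291.7, 302.3 and 403.5. None of these genes overlapped between the genotypes, and all 3 (-/-) arrays were lower, which held for 1.9% of all probe sets tested. G was the highest (-/-) array for Egr1 and Dusp1, as it was for Fos, but H was the highest for Ccn1, Nr4a1 and Rgs2. At E18.5 none of the 20 genes of the list that were tested was called, and their median was 0.11.

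**Figure D4:**
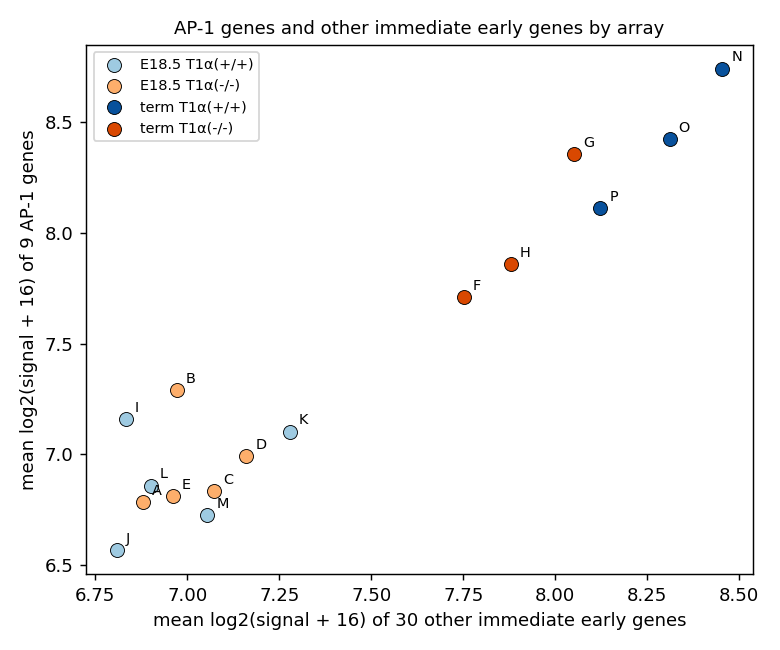
Mean log2(signal + 16) of the 9 AP-1 family genes (y axis) against that of the other immediate early genes on the array (x axis), 1 point for each of the 16 arrays, labelled by letter. All term arrays lie at 7.71 or higher on both axes and all E18.5 arrays at 7.29 or lower, and among the term arrays F and H lie lowest and N highest.

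The remaining lists around AP-1, chosen with the same knowledge, had medians near 0 between the genotypes at term. Of the other bZIP factors, 18 of 33 listed genes were tested, with a median log2 difference of 0.05 and 0 calls. The upstream kinases and serum response factor genes (11 of 29 tested) had a median of 0.06, and AP-1 target genes (18 of 35 tested) had a median of 0.05, each with 0 calls. Of the 3 lists, none had a call at E18.5 either, with 14, 11 and 16 genes tested.

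Over time these lists held calls in both directions, to be read beside the 10.7% of all probe sets called higher and 8.07% lower in (+/+) lungs and the 13.8% and 13.1% in (-/-) lungs. Of the other bZIP factors, 6 of 18 were called higher and 1 lower at term in (+/+) lungs, and 7 of 17 higher and 2 lower in (-/-) lungs, with medians of 0.50 and 0.56. Cebpd, a C/EBP factor known in the acute phase response, was higher by 2.11 (SE 0.46) in (+/+) and 1.45 (SE 0.24) in (-/-) lungs, and Bach1, a repressor of heme oxygenase, by 1.49 (SE 0.42) and 1.64 (SE 0.35). Of the kinases, 2 of 11 were called higher and 0 lower in (+/+) lungs, and 2 of 12 higher and 1 lower in (-/-) lungs, counts near these shares. Map2k1, the MEK1 kinase upstream of ERK, was higher by 1.80 (SE 0.28) and 1.34 (SE 0.21). Of the AP-1 target genes, 5 of 18 were called higher and 2 lower in (+/+) lungs, and 6 of 18 higher and 3 lower in (-/-) lungs. Vegfa, an endothelial growth factor, was higher by 1.81 (SE 0.37) and 1.63 (SE 0.25), and Plaur, the urokinase receptor, by 1.77 (SE 0.35) and 1.40 (SE 0.25).

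**Figure D5:**
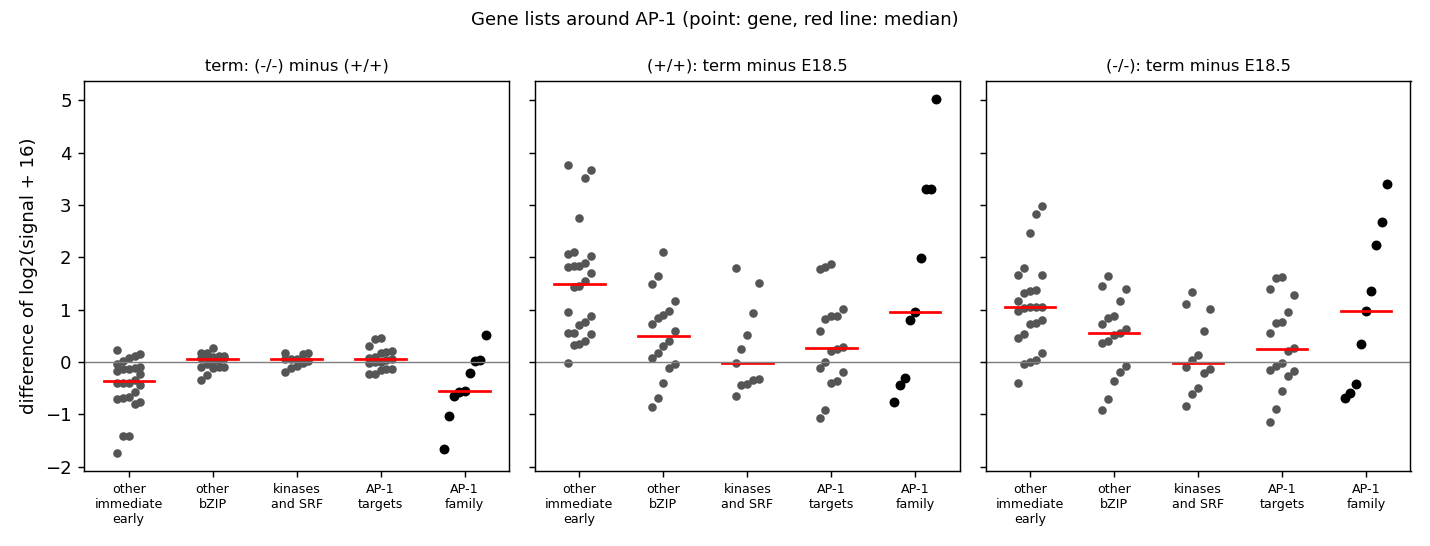
Differences of log2(signal + 16) for the tested genes of the 4 lists around AP-1 and for the 9 AP-1 family genes (points, genes; red line, median), between the genotypes at term and between the times in each genotype. At term the other immediate early genes have a median of -0.37 and the other 3 lists medians of 0.05 to 0.06, and over time the other immediate early genes have medians of 1.499 and 1.04.

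The genes most like the family across the 16 arrays were found by Pearson correlation with the mean profile of the 8 family genes that passed the filter, over 5809 probe sets. The arrays share the jump between the times, so these values describe the data and carry no p. The highest r were those of Ier2, an immediate early gene (0.97, rho 0.89), and of the cytokine signalling inhibitor Socs3 on 2 probe sets (0.97 and 0.96). Slc25a51, Tmem9b, Ccn1, Tgoln1 and Epb41l4aos followed at 0.95 each, and the median of all probe sets was -0.08. Ier2 read 2269.9, 2160.1 and 1274.2 on N to P against 863.8, 1869.2 and 947.1 on F to H, with the same order of G, H and F as Fos.

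After the mean of each group was taken away, so that only differences among lungs of like genotype and time were left, the mitochondrial carrier gene Slc25a51 (r = 0.93) and Epb41l4aos (0.91) were again among the 8 most similar, followed by Thop1 (0.88), Zcrb1 (0.87), Tbx2 (0.85), Cldn3 (0.83), Cmtm8 (0.81) and Cryaa (0.80). None of these is on the list of immediate early genes. Within the family, r with the profile in this setting was 0.86 for Junb, 0.63 for Fos, 0.63 for Atf3, 0.61 for Jun and 0.55 for Fosb, and it was 0.21 for Fosl2, 0.27 for Maff and 0.34 for Jund, each of these genes being part of the profile itself. Slc25a51 read 377.5, 313.5 and 206.7 on N to P and 211.8, 387.8 and 284.4 on F to H. Its term genotypes overlapped, unlike those of Fos.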

How the data were processed

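Each of the 16 arrays held RNA of 1 lung, labelled with an ENZO kit and read as MAS 5.0 signal, an intensity that the authors scaled between arrays and deposited as a value table on a linear scale. The array number limits the precision. Genes were named through the platform annotation, with symbols updated by Entrez gene identifier (10833 probe sets with 1 symbol, 396 with several, 1193 with none). Groups follow the sample labels.

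From the deposited intensity values, log2(signal + 16) was fitted with limma 3.58.1 (lmFit, eBayes with an intensity trend) in R 4.3.3 over all probe sets that passed the filter on low signals, with Benjamini-Hochberg adjustment over all of them, using only the groups compared. The fit was tested on simulated data. For a gene with several probe sets that of the highest mean log2 signal was used. The methods' t-test was run as an alternative, beside other scalings, pseudocounts, filters, weights and leaving out each array.

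The members and lists were chosen with earlier results of these data known. Named were all family probe sets, Pdpn, Egr1, Dusp1 and Nr4a1, up to 3 genes of each list with the lowest p per comparison, and the 8 probe sets most like the mean family profile, with and without group means; not all of these are printed. Marker lists served as checks. Replicate letters do not pair the samples. Promoters and motifs were read from RefSeq tables with Python 3.11.15.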

Additional observations from a re-analysis of the deposited data

Results flagged for a closer look

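In groups of 5 arrays, 4 of the 26 groups of the family's probe sets held an array whose gap to its nearest neighbour was large for the range of the group, and chance gives about 1 in 20. Junb probe set 102363_r_at read 178.5 on E18.5 (-/-) array B, against 56.7 to 73.2 on the other 4 arrays, while the other Junb probe set read 110.1 there. Atf3 probe set 104156_r_at read 67.6 on E18.5 (+/+) array K, against 29.3 to 35.2. The remaining 2 are probe sets too low to be tested: Fos 161716_at read 18.3 on E18.5 (+/+) array I, against 1.4 to 5.1, and Atf3 161645_r_at read 13.1 on the same array, against 4 to 5.8. Array I had the highest median signal over all probe sets, 61, against 35.8 to 47.8 on the other arrays. No cause was tested.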

How the results depend on the processing

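No family gene was called between the genotypes at E18.5 under any of 20 alternatives. In that comparison the 2 probe sets called overall became 1 without a pseudocount, 1 with the stricter filter (25% in place of 45%), 0 to 3 when single arrays were left out (0 without L) and 0 by the methods' t-test, which found 339 at its threshold before adjustment. At term the median of the 9 genes ranged from -0.70 to -0.082 when single arrays were left out, with the latter without N. In (+/+) lungs the probe sets called over time were 1142, 1941 with array quality weights, and 335 (without N) to 1269 when single arrays were left out, with 585 without O. In (-/-) lungs they were 1654, and 893 (without F) to 1769 when single arrays were left out, with 1101 without G. The median of the 9 genes over time in (-/-) lungs, 0.98, was 0.67 with a pseudocount of 64. The family genes called lower there, 1 (Jund), were 0 with quantile normalization, 0 with arrays scaled to a common median, 0 without a filter, 0 with all 16 arrays in a single fit, and 0 to 1 when single arrays were left out (0 without A, C, F or H). Why was not tested. No difference with a call changed its sign. No paired analysis was possible because the arrays carry letters that no other group shares. The number of arrays, 3 in each term group, limits what can be called at birth.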
